A study of Mus musculus with 12 samples.

Results

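The genes described here code for the translation initiation factors and their closest regulators in mouse liver. They are the 47 genes whose symbol begins with Eif and a digit, among 18193 genes that the array's annotation gives a probe set of their own. The 47 genes had 133 probe sets (short sets of oligonucleotides that read 1 transcript or a few), and each gene is represented by the probe set with the highest mean log2 signal over all arrays. The values were read from 12 Affymetrix Mouse430 2.0 arrays of whole liver as deposited MAS5 signals, an arbitrary unit of brightness. Of the 47 genes, 45 were above the median signal of at least 2 of the 12 arrays and were tested among 14103 genes, and 42 of these were above the median on all 12. The 2 genes left out are Eif2s3y and Eif4a3.

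All mice were females of 8 to 12 weeks that carried the YAP fl/fl allele, a Yap1 gene flanked by loxP sites. Mice called KO received AAV8-TBG-Cre, a virus whose hepatocyte promoter TBG drives Cre recombinase, so that Yap1 is meant to be lost in hepatocytes and kept in other liver cells. Mice called WT received AAV8-TBG-GFP, so WT and KO livers shared the floxed allele and an AAV8 vector. YAP, the protein of Yap1, is a transcriptional coactivator of the Hippo pathway. TCPOBOP, which activates the nuclear receptor CAR and makes mouse liver enlarge and its hepatocytes divide, was given once by gavage at 3 mg/kg in corn oil, 10 days after the virus, and livers were taken on day 1 or day 2 after it. Day 0 livers came from mice that had the virus and neither TCPOBOP nor corn oil, so the drug, the gavage and the time after the virus cannot be told apart in a comparison of day 2 with day 0. There were 2 arrays for each genotype at day 0 and 3 at day 2, while day 1 had 1 array of pooled RNA for each genotype. The labels number the arrays of a group without saying that each is a separate mouse, so the p-values measure the spread between these samples.

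Initiation is the step of translation at which a ribosome finds the start codon of a messenger RNA. The factor eIF4E binds the cap, eIF4G bridges the cap and the ribosome, and the helicase eIF4A with its helpers eIF4B and eIF4H unwinds the leader. The large complex eIF3 holds the small ribosomal subunit, and eIF2 brings the initiator tRNA as a complex with GTP. eIF2B recharges eIF2 with GTP, and stress kinases of the Eif2ak family stop that exchange by phosphorylating the alpha subunit of eIF2. eIF1, eIF1A, eIF5 and eIF5B help to select the start codon and join the large subunit, eIF5A acts mainly in elongation, and eIF6 is needed to make the large subunit and keeps it apart from the small one. In liver these factors set the capacity for secreted plasma proteins, and their supply rises in many tissues when cells grow and divide.

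In WT over time and in KO against WT at day 2, eIF3 held more called genes than any other role described here, with 5 and 7. It is also the largest role, with 11 tested subunit genes. In the same 2 comparisons the cap-binding complex held 4 and 1 of 9, and Eif5a, Eif5a2 and Eif6 held 2 and 2 of 3. Of all genes, 7.26% rose in WT and 5.23% were lower in KO at day 2. The 1 of 9 is near that share. Eif3b, Eif3c, Eif3d, Eif3f and Eif3l rose in WT between day 0 and day 2 and were lower in KO than in WT at day 2. Their promoters are printed to let these moving members be read side by side. Each line gives the 120 bases before the start site, 5′ to 3′ on the strand of the gene, from RefSeq with the mouse build GRCm38.p6. Capitals mark a searched motif on either strand, and within these 120 bases the motif is TEAD in Eif3b, the E-box in Eif3f and ETS in Eif3c, Eif3d and Eif3l.
Eif3b: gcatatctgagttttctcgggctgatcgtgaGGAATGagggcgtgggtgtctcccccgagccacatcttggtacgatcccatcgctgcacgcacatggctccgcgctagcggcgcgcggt
Eif3c: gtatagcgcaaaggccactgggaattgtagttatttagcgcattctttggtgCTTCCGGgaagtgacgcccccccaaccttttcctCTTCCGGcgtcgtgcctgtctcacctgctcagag
Eif3d: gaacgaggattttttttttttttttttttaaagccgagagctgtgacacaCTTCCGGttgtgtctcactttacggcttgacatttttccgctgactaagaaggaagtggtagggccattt
Eif3f: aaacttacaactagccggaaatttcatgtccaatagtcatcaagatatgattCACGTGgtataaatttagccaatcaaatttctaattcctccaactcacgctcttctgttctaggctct
Eif3l: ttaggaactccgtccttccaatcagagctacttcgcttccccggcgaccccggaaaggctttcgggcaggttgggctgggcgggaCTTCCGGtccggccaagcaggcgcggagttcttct
The windows are chr5:140419185-140419304 on the plus strand for Eif3b, chr7:126566367-126566486 on the minus strand for Eif3c, chr15:77970825-77970944 on the minus strand for Eif3d, chr7:108934295-108934414 on the plus strand for Eif3f and chr15:79075103-79075222 on the plus strand for Eif3l. The motifs searched were GGAATG, the core bound by the TEAD proteins that carry YAP to DNA, CACGTG, the E-box bound by Myc and related proteins, and CCGGAAG, a core of the ETS family. Neighbouring motifs can share at most 2 end bases. Over the 250 bases before any listed start, both strands, CCGGAAG stood in 11 of the 38 initiation factor genes that had a RefSeq promoter (28.9%) and in 7.83% of all 27025 genes. CACGTG stood in 8 of the 38 (21.1%) against 6.86% of all genes, and GGAATG in 4 of the 38 (10.5%) against 14.4%. Of the 7 initiation factor genes that rose in WT and were lower in KO at day 2 (the 5 above, Eif5a and Eif6), 6 had a promoter in the table. CCGGAAG stood in 4 of them (Eif3c, Eif3d, Eif3l and Eif5a), CACGTG in 2 (Eif3f and Eif5a) and GGAATG in 2 (Eif3b and Eif3f). A match describes these letters and is not evidence of binding.

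The labels were checked on the targeted gene first. Yap1 read between 999.2 and 1306 on the 6 WT arrays and between 449.6 and 797 on the 6 KO arrays, and the 2 ranges did not overlap. Eif2s3y, a Y-linked copy of the eIF2 gamma subunit gene, read between 16.2 and 115 on all 12 arrays, far under the array medians of 231.6 to 277. The arrays were not alike in their brightest signals. The highest signal ran from 48217 to 67457 on the KO day 2 arrays and from 103216 to 116918 on the WT day 2 arrays. The mean of the added cre control probe sets moved with it, from 11904 to 14515 and from 29347 to 30060. At day 0 the highest signal ran from 88576 to 102372 in KO and from 71165 to 73118.5 in WT. The cre mean at day 0 ran from 24167 to 25294 in KO and from 17861 to 18695 in WT. From day 0 to day 2 both measures thus moved up in WT and down in KO. KO livers also received a Cre gene, and its part in the cre probe sets was not tested. Every array had a trimmed mean close to 500 (499.8 to 500.002), the usual MAS5 scaling. Because of this spread, differences are also given after quantile normalization, which gives every array the same distribution of signals. The part of the array scale in the results was not tested further. The ratio of 3′ to 5′ actin probe sets, a sign of RNA integrity, lay between 1.53 and 2.11, and KO minus WT within days did not pass a test (log2 difference -0.085, exact permutation test, two-sided p = 0.3333 over 240 arrangements). The same ratio for Gapdh lay between 0.734 and 0.748 on the KO day 2 arrays and between 0.763 and 0.830 on the WT day 2 arrays, which did not overlap, and its part in the results was not tested. Of 5 hepatocyte markers, 2 rose and 1 fell in WT by day 2, 5 fell in KO, and 3 were lower in KO than in WT at day 2. Their summed signal was 304803 to 349575 in WT at day 2 and 169118 to 216164 in KO at day 2, against 254337 to 254851 and 296734 to 352747 at day 0. Some of these markers are among the brightest signals, whose spread between arrays is given above. Alb read 114244 on WT day 2 replicate 3, where the highest signal was 116918. The marker sums are as deposited, and the part of the array scale in them was not tested. Of 6 proliferation markers, 6 rose in WT and 5 in KO, and 5 were lower in KO at day 2 (summed signal 10088 to 10919 in WT and 2706 to 3967 in KO, against 486 to 638 at day 0 over both genotypes). Among the other lists, 3 of 5 tested stellate markers fell in each genotype. Of 6 sinusoidal endothelial markers, 2 fell in WT and 1 was higher in KO at day 2. Of 7 markers of Kupffer cells and macrophages, 1 fell in KO and 1 was lower in KO at day 2. Of 6 lymphocyte markers 1 fell in WT, of 2 tested erythroid markers 1 fell in KO, and none of the 2 cholangiocyte and 3 neutrophil markers tested was called. The part of these cell types in the results was not tested, and in bulk tissue fewer cells of a type and less RNA per cell cannot be told apart.

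A gene is called changed where limma's Benjamini-Hochberg adjusted p, taken over all 14103 genes, is under 0.05. A gene's other probe sets were read in a separate fit of all sets above the filter that name a single gene. There the adjusted p is taken over those sets, so calls near 0.05 can differ between these fits. Differences are in log2 of the signal plus 16, with the standard error of the fit. In WT livers, 13 of the 45 tested initiation factor genes rose between day 0 and day 2, where 7.26% of all genes rose. None fell, where 5.37% of all genes fell, and 3 had a negative difference at an unadjusted p under 0.05. The median difference was 0.20 over the 45 genes and -0.11 over all genes. After quantile normalization 10 rose, all of them among the 13 (background 6.75%), and 1, Eif4a2, fell (background 5.95%). In KO livers, 2 of the 45 rose (background 4.20%) and 5 fell (background 4.49%). The KO median was -0.025 as deposited and 0.057 after quantile normalization, so its sign turned with the scaling. With that normalization 4 rose and 5 fell in KO, where 4.70% and 4.55% of all genes did, and with each array centred on its median 0 rose and 5 fell. The 2 rises of 45 in KO stand near the background. The 5 falls stand above it in the full set of arrays, but fewer genes fell without KO day 0 replicate 1. That fit leaves 1 array in the group, and the KO median was then 0.012. Shares of all genes were not counted with an array left out. Leaving out KO day 2 replicate 1 or 2 lowered the 7 KO calls to 3 or 4, and the 13 WT calls went to 9 without WT day 0 replicate 2.

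At day 2, 13 of the 45 genes were lower in KO than in WT, where 5.23% of all genes were lower. None was higher, where 3.99% of all genes were higher, and 5 had a positive difference at an unadjusted p under 0.05. The 5 include Eif2ak4, which passed the filter through KO day 2 arrays alone, so its p is not read as a result. The median was -0.30 over the 45 genes, 0.090 over all genes and -0.041 over the 3818 genes whose mean log2 signal lay within the middle part of the initiation factors' range (9.81 to 11.76). After quantile normalization 7 were lower (background 3.87%) and 1, Eif5, was higher (background 3.46%), and the median moved to -0.11. Centring each array on its median moved the median of all genes from 0.090 to -0.084 in this comparison. It moved the median of the 3818 genes from -0.041 to -0.21. With this centring 21 of the 45 were lower. The share of all genes called lower was not counted there, so the 21 has no background beside it. The count of 13 went to 6 without KO day 2 replicate 2, to 7 without KO day 2 replicate 3, and to 8 without KO day 2 replicate 1, WT day 2 replicate 1 or WT day 2 replicate 3. Eif2b1, Eif3b, Eif3c, Eif4h and Eif6 were called with each of the 10 arrays left out in turn.

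At day 0, before TCPOBOP, no initiation factor gene differed between KO and WT in limma's fit, where 0.170% of all genes did in either direction. At an unadjusted p under 0.05 there were 4, namely Eif1a, Eif4a1 and Eif5 with positive differences of 0.53, 0.49 and 0.39, and Eif2d with -0.52. The median difference of the 45 genes was 0.090, and it was 0.022 without KO day 0 replicate 1, which leaves 1 array in that group. The change from day 0 to day 2 was compared between genotypes as a difference of differences. It was more negative in KO for 8 of the 45 genes (background 2.06%) and more positive for none (background 1.08%), with 1 positive difference, Eif2d, at an unadjusted p under 0.05. The 8 were Eif1a, Eif2b1, Eif3b, Eif3c, Eif4a1, Eif4h, Eif5a and Eif6. After quantile normalization 3 remained, Eif1a, Eif2b1 and Eif3c (background 1.16%). Eif3c alone was called with each of the 10 arrays left out. The count fell to 1 or 2 without any 1 of the WT arrays of day 0 and day 2 (replicates 1 and 2, and 1, 2 and 3) or any 1 of KO day 2 replicates 1, 2 and 3. Averaged over both genotypes, 11 genes rose from day 0 to day 2 (background 7.70%) and 3 fell (background 6.84%).

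**Figure D1:**
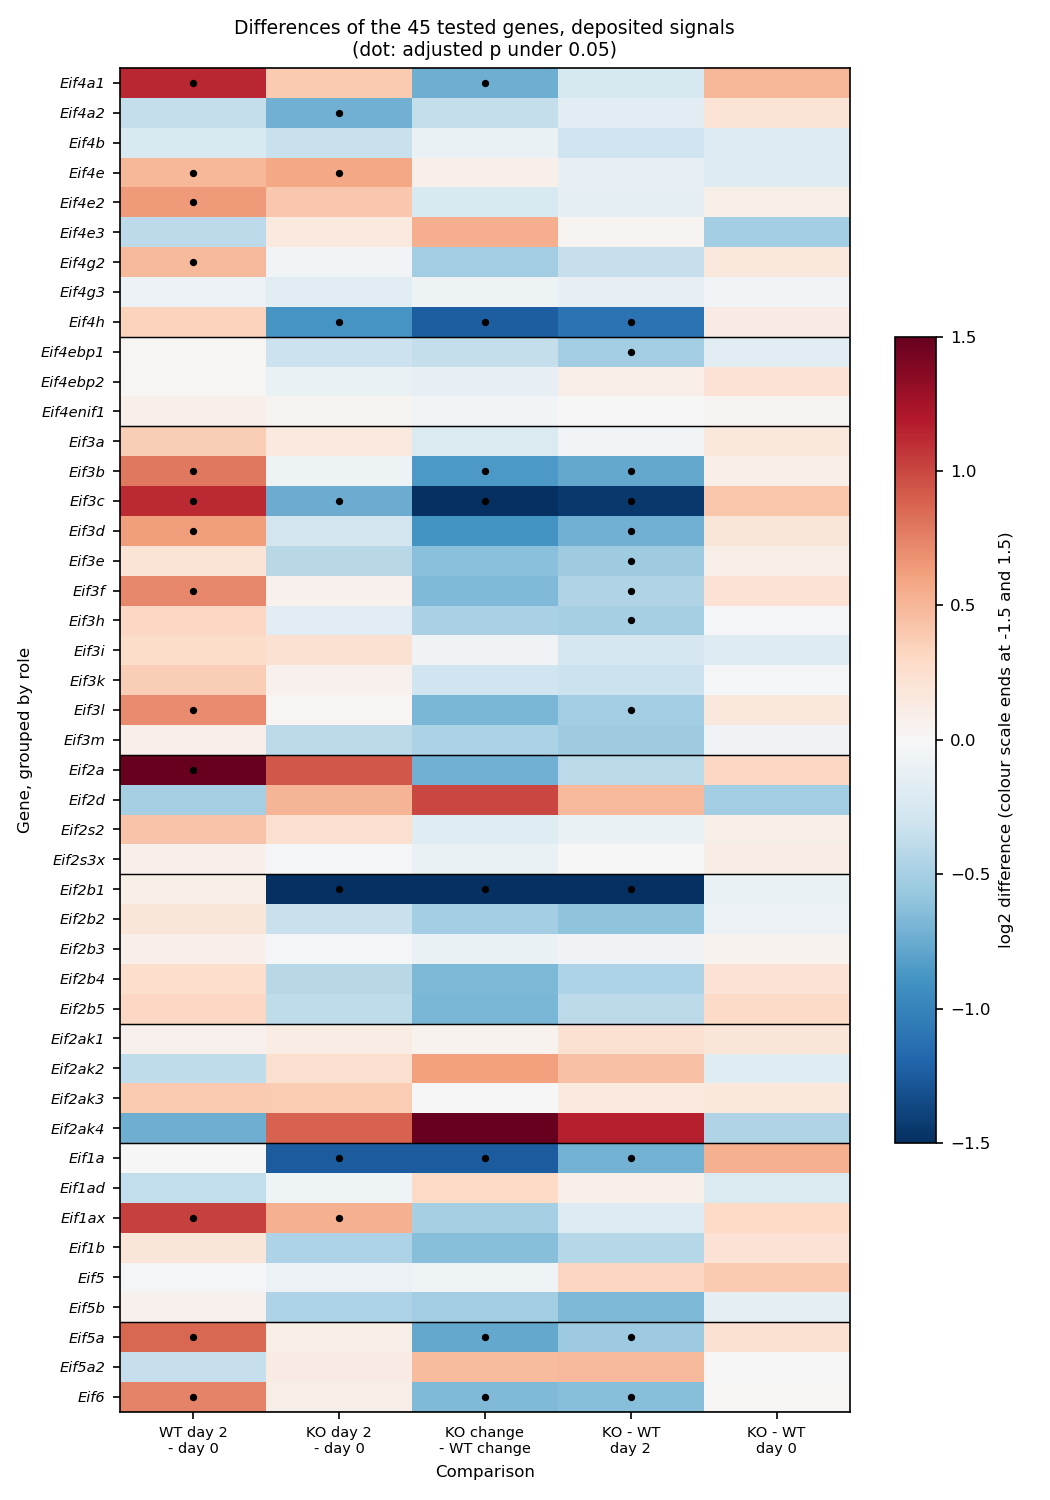
Log2 differences of the 45 tested initiation factor genes (rows, grouped by role) in 5 comparisons (columns), with a dot where the adjusted p was under 0.05. The WT column holds 13 dots, all on positive differences, and the column of KO minus WT at day 2 holds 13 dots, all on negative ones.

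**Figure D2:**
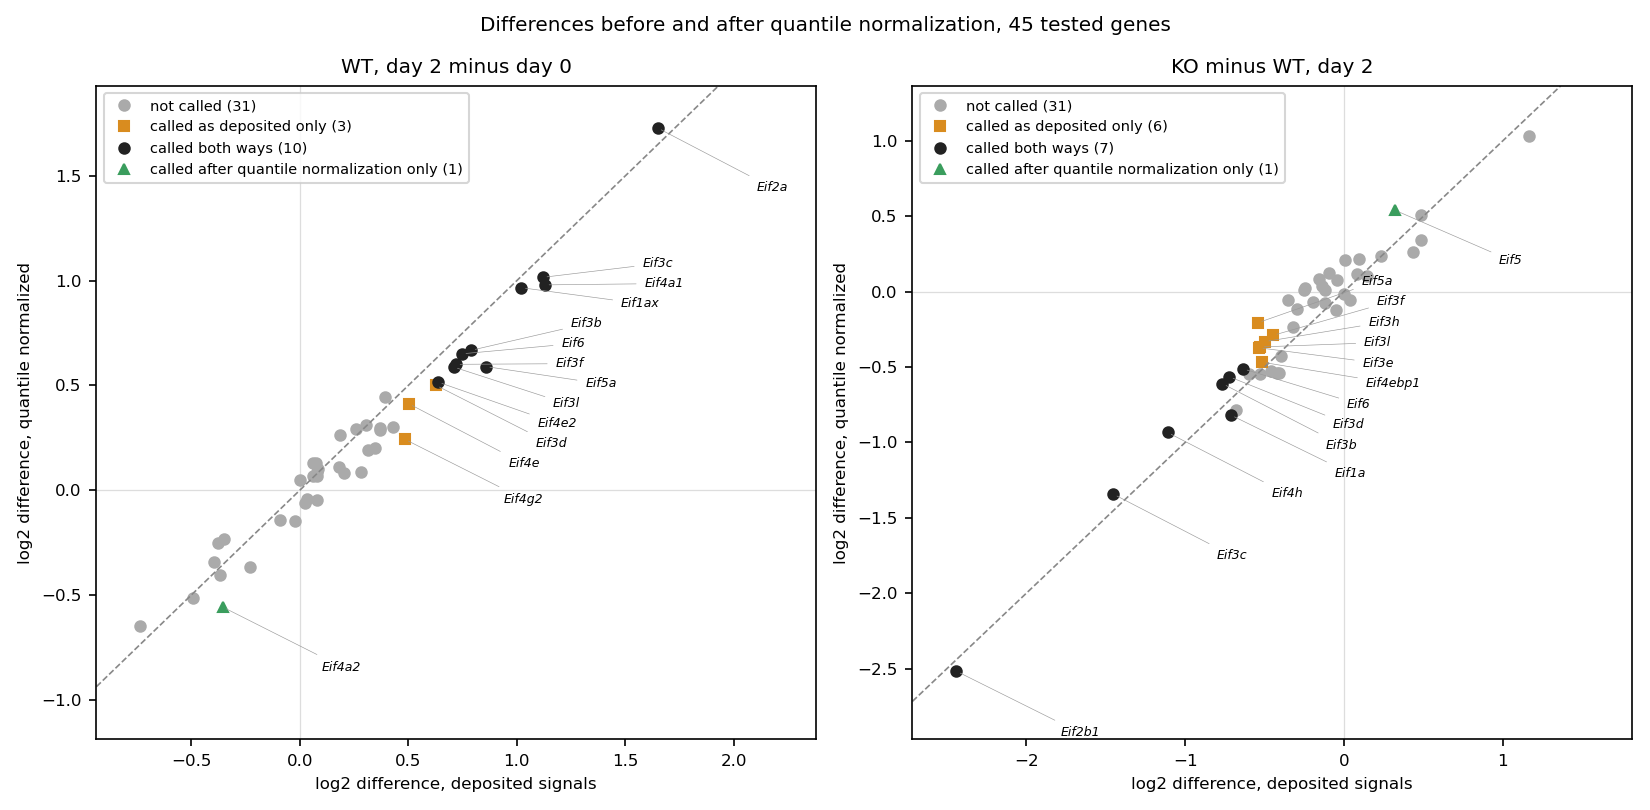
Log2 differences of the 45 genes from the deposited signals (x axis) and after quantile normalization (y axis), in WT over time and in KO against WT at day 2; the dashed line marks equal values. In the first panel 10 genes were called both ways, and in the second 7 were.

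The cap-binding machinery was split in its response. Eif4a1, the main helicase gene of the complex, read 4282 and 3873 at day 0, 10369 in the day 1 pool and 8251, 9237 and 9348 at day 2 in WT. In KO, Eif4a1 read 5499.9 and 6002 at day 0, 8549 in the day 1 pool and 6859, 8315 and 7529 at day 2. With the set used, every day 2 array stood above every day 0 array within each genotype, and the KO day 0 arrays stood above the WT day 0 arrays. The WT rise was 1.13 ± 0.13 (2.19-fold, adjusted p = 0.000131) and the KO difference was 0.39 ± 0.13, which did not pass (adjusted p = 0.0794). A set nearly as bright, 1434985_a_at, gave 0.40 in WT (adjusted p = 0.124), and its KO day 2 arrays lay within the range of KO day 0. For KO against WT it gave -0.19 at day 0, not called, and -0.53 at day 2 (adjusted p = 0.0366). The set 1430980_a_at gave 1.02 in WT (adjusted p = 0.00359) and -0.13 for KO against WT at day 2, not called. With the set used, the change in KO minus the change in WT was -0.74 ± 0.18 (adjusted p = 0.0475). In the fit of all probe sets this difference had an adjusted p of 0.05265. After quantile normalization that difference was -0.42 (adjusted p = 0.228), and as deposited it was lost without WT day 0 replicates 1 or 2, WT day 2 replicates 1, 2 or 3, KO day 0 replicate 2 or KO day 2 replicates 1, 2 or 3.

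Its close relative Eif4a2, a helicase gene of the same family, went the other way. In WT it read 8933 and 7448 at day 0, 7246 in the day 1 pool and 6636, 5691 and 6855 at day 2. For Eif4a2 in KO, the values were 10328 and 8529 at day 0, 7443 in the day 1 pool and 6294, 5612 and 5262 at day 2. The 3 day 2 arrays lay below both day 0 arrays in each genotype. The KO fall of -0.72 ± 0.14 passed (adjusted p = 0.00908, lost without KO day 0 replicate 1), while the WT difference of -0.36 ± 0.14 passed after quantile normalization (-0.56, adjusted p = 0.0111) and not as deposited (adjusted p = 0.136). Averaged over both genotypes Eif4a2 fell (difference -0.54 ± 0.10, adjusted p = 0.00387).

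Eif4e, the cap-binding protein gene, read 1568 and 1584 at day 0, 2821 in the day 1 pool and 2208, 2118 and 2397 at day 2 in WT. The KO arrays of Eif4e read 1592 and 1181 at day 0, 2286 in the day 1 pool and 2075, 1984 and 2127 at day 2. Day 0 and day 2 did not overlap in either genotype. The rise was 0.50 ± 0.14 in WT (adjusted p = 0.0373) and 0.58 ± 0.14 in KO (adjusted p = 0.0242), and KO differed from WT by -0.12 ± 0.13 at day 2, which did not pass (adjusted p = 0.568). Neither rise was stable to a left-out array. The WT call was lost without WT day 0 replicates 1 or 2, WT day 2 replicates 1, 2 or 3 or KO day 2 replicates 1, 2 or 3 and after quantile normalization (0.41, adjusted p = 0.0681), and the KO call was lost without KO day 0 replicate 2 or KO day 2 replicates 1, 2 or 3. The other 3 sets of the gene above the filter gave 0.27, -0.37 and -0.25 in WT, of mixed sign and none of them called.

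Eif4e2, which codes for a cap-binding relative that can repress translation, read 2463 and 2079 at day 0, 2778 in the day 1 pool and 3339, 3409 and 3858 at day 2 in WT. For Eif4e2 in KO, the values were 2454 and 2368 at day 0, 2836 in the day 1 pool and 3385, 3186 and 3032 at day 2. In both genotypes the 3 day 2 arrays were above both day 0 arrays. Eif4e2 rose by 0.64 ± 0.13 in WT (adjusted p = 0.00619, lost without WT day 0 replicate 2), and the KO difference of 0.41 ± 0.13 had an adjusted p of 0.0719. The other 4 Eif4e2 sets above the filter gave -0.51, -0.25, 1.22 and 0.33 in WT, of mixed sign. Of these, 1435803_a_at was called higher in WT (adjusted p = 0.00137) and in KO (0.76, adjusted p = 0.0306). Eif4g2, a relative of eIF4G that lacks the eIF4E binding site, read 8082 and 8097 at day 0, 12686 in the day 1 pool and 11266, 12119 and 10613 at day 2 in WT. For Eif4g2 in KO, the values were 8389 and 9908 at day 0, 11879.6 in the day 1 pool and 8997, 8949 and 8656 at day 2. In WT day 2 was above day 0, and in KO day 2 lay within the range of day 0. The WT rise of Eif4g2 of 0.48 ± 0.12 (adjusted p = 0.0185) was 0.24 after quantile normalization (adjusted p = 0.281) and was lost without WT day 0 replicates 1 or 2 or WT day 2 replicate 2. Among the other Eif4g2 sets above the filter, 1415863_at gave 0.54 in WT (adjusted p = 0.0281). The rest gave -0.30, -0.31 and -0.081 and were not called. The helper gene Eif4b, the cap-binding gene Eif4e3 and the scaffold gene Eif4g3 were called in no comparison. Eif4b read 5478 and 4594 at day 0, 2749.8 in the day 1 pool and 4008, 4344 and 4488 at day 2 in WT. For Eif4b in KO, the values were 4721 and 4079 at day 0, 2207 in the day 1 pool and 3535, 3228 and 3681 at day 2. The pool was the lowest array of the gene in each genotype, and the differences from day 0 to day 2 were -0.23 ± 0.13 in WT and -0.33 ± 0.13 in KO.

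Eif4h, the other helper of the helicase, carried the largest genotype difference among these cap-binding genes, but its probe sets disagreed. The set used read 5929.5 and 4315 at day 0, 4623 in the day 1 pool and 6746, 6435 and 6148 at day 2 in WT. For Eif4h in KO, the values were 7364 and 4108 at day 0, 4627 in the day 1 pool and 3062, 3080.1 and 2784 at day 2. The KO day 2 arrays were below all the other arrays of the gene. Eif4h fell in KO (difference -0.88 ± 0.21, adjusted p = 0.0227, lost without KO day 0 replicate 1 or KO day 2 replicates 1, 2 or 3) and was lower in KO than in WT at day 2 (difference -1.11 ± 0.19, adjusted p = 0.00672). The difference of changes was -1.23 ± 0.30 (adjusted p = 0.0491, 0.0734 after quantile normalization), lost without WT day 0 replicates 1 or 2, WT day 2 replicates 1, 2 or 3, KO day 0 replicate 1 or KO day 2 replicates 1, 2 or 3. The other 4 sets that passed the filter gave -0.38, -0.33, -0.17 and -0.019 for KO against WT at day 2, none of them called. Over time in KO, the set 1438554_x_at gave -0.64 (adjusted p = 0.0228) and the set 1447070_at gave 0.52 (adjusted p = 0.0236), calls of opposite sign for 1 gene.

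Of the 3 regulators of cap binding, 1 was called, in 1 comparison. Eif4ebp1, whose protein blocks eIF4E until mTORC1 phosphorylates it, read 1878 and 1500.1 at day 0, 1306 in the day 1 pool and 1829, 1627 and 1699 at day 2 in WT. For Eif4ebp1 in KO, the values were 1508 and 1494 at day 0, 1401 in the day 1 pool and 1183, 1056 and 1365 at day 2. It was lower in KO at day 2 (difference -0.52 ± 0.13, adjusted p = 0.0344), and the groups did not overlap. The value was -0.47 after quantile normalization (adjusted p = 0.0577), and the call was lost without WT day 2 replicates 1, 2 or 3 or KO day 2 replicates 1 or 2. Its other sets, 1417562_at and 1417563_at, gave -0.63 and 0.21 for KO against WT at day 2, neither called. Eif4ebp2, a second such repressor, and Eif4enif1, which carries eIF4E into the nucleus, were called in no comparison. Eif4g1, Eif4ebp3 and the eIF2 alpha subunit gene Eif2s1 were not analysed here.

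**Figure D3:**
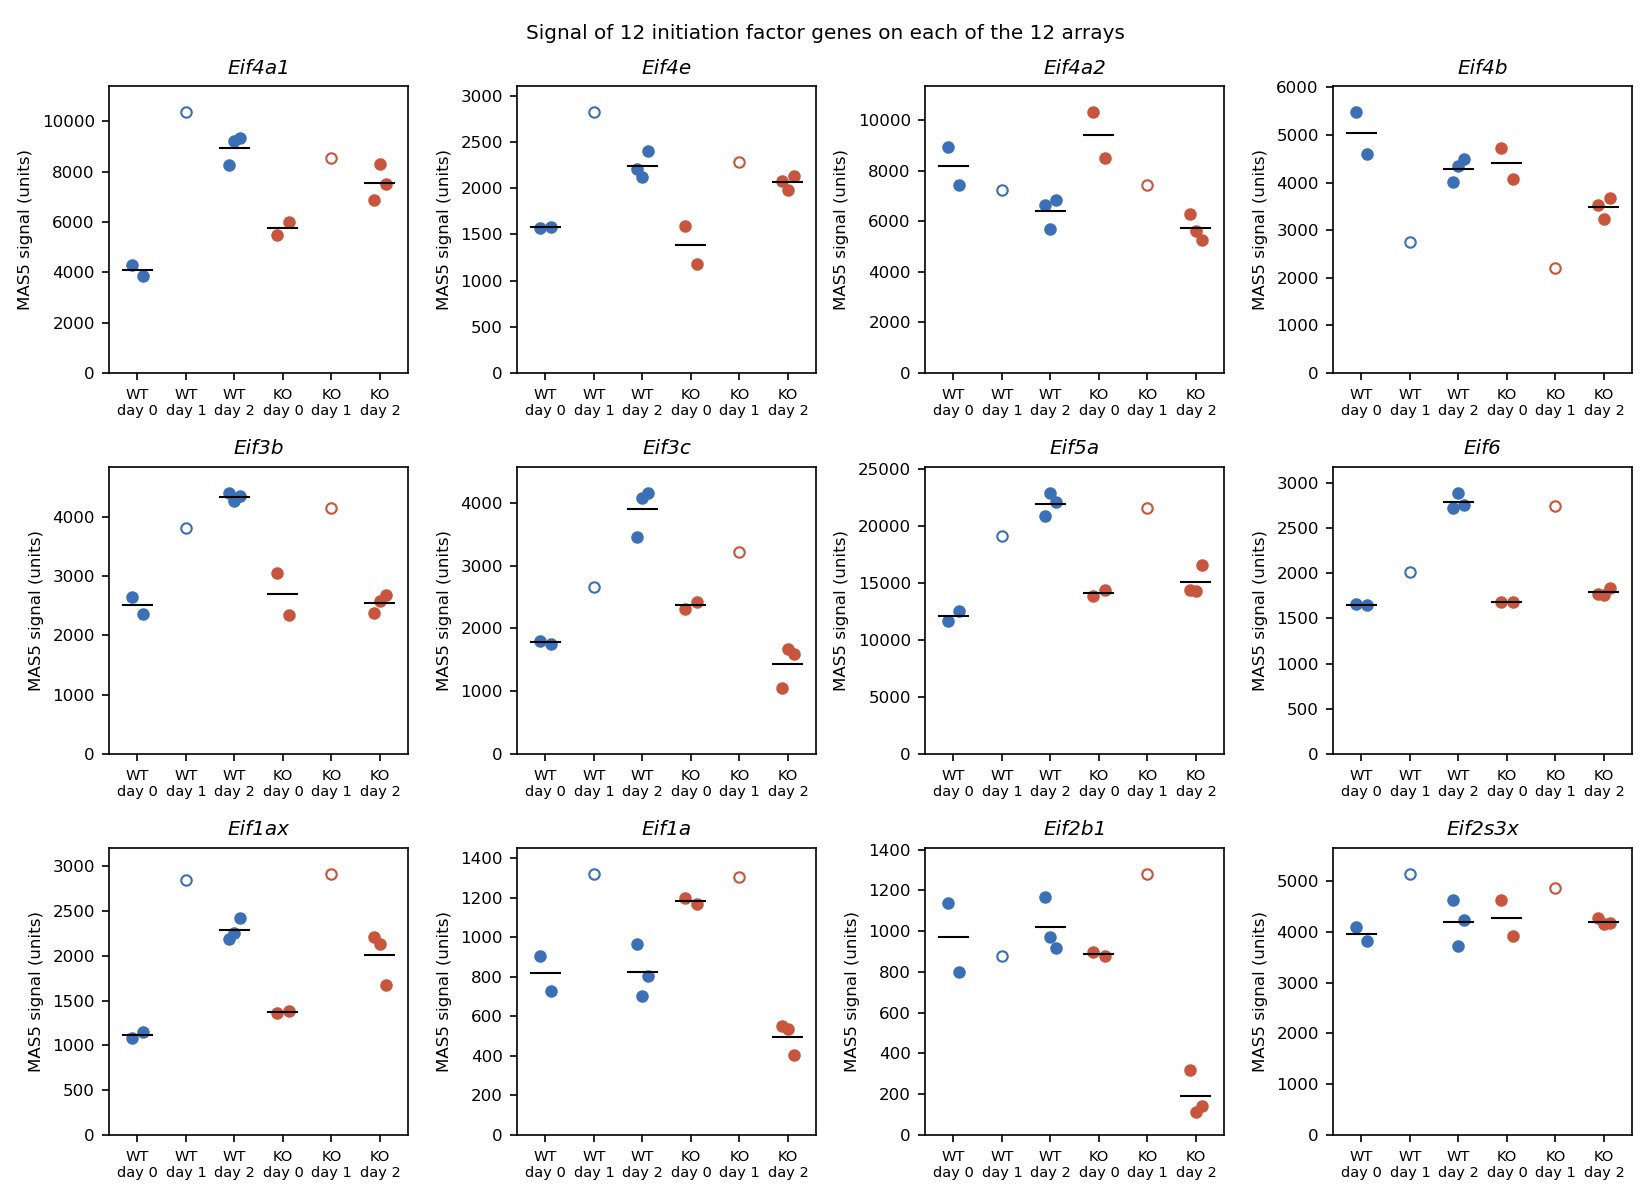
MAS5 signal (y axis, from 0) of 12 initiation factor genes on each array, by genotype and day (x axis); filled points are single arrays, open points the day 1 pools and bars the group means. Eif2b1 on the 3 KO day 2 arrays, at 112 to 321, stood below its other 9 arrays.

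The eIF3 genes formed the largest group, with 11 members tested. All 11 had a positive difference in WT, with a median of 0.37 against -0.11 over all genes, and 5 rose (background 7.26%). In KO the median was -0.071 against 0.052 over all genes, with 5 positive and 6 negative differences, and Eif3c alone fell (background 4.49%). At day 2 all 11 were lower in KO than in WT in value, with a median of -0.53 against 0.090 over all genes, and 7 passed the test (background 5.23%). After quantile normalization 9 of the 11 were negative, with a median of -0.37 against 0.047 over all genes, and 3 passed, Eif3b, Eif3c and Eif3d (background 3.87%).

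Eif3c, the gene of a core subunit, read 1798 and 1755 at day 0, 2659.6 in the day 1 pool and 3454, 4076 and 4154 at day 2 in WT. The KO arrays of Eif3c read 2309 and 2426 at day 0, 3223 in the day 1 pool and 1048, 1678 and 1586 at day 2. The day 2 arrays were above day 0 in WT and below it in KO, and the 2 genotypes did not overlap at day 2. Eif3c rose by 1.12 ± 0.18 in WT (adjusted p = 0.00194) and changed by -0.74 ± 0.18 in KO (adjusted p = 0.027, lost without KO day 0 replicates 1 or 2 or KO day 2 replicate 1). At day 2 KO was lower than WT (difference -1.45 ± 0.16, 2.74-fold, adjusted p = 0.00133), and the difference of changes was -1.86 ± 0.26 (adjusted p = 0.00769). These differences came from the set 1456374_x_at, whose name ending marks probes that may also read similar transcripts. A second set, 1415858_at, gave 0.50 ± 0.14 in WT over time (adjusted p = 0.0396) and -0.75 ± 0.12 for KO against WT at day 2 (adjusted p = 0.0065). Of the 2 dimmer sets, 1415859_at gave -0.30 and 1456083_x_at gave 0.31 in that comparison, and neither passed.

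Eif3b, the gene of a subunit that anchors eIF3g and eIF3i, read 2652 and 2354 at day 0, 3815 in the day 1 pool and 4394, 4268 and 4337 at day 2 in WT. For Eif3b in KO, the values were 3045 and 2344 at day 0, 4149.7 in the day 1 pool and 2381, 2571 and 2682 at day 2. WT at day 2 stood above every other array of the gene, and KO at day 2 lay within the range of day 0. The WT rise was 0.79 ± 0.14 (adjusted p = 0.00252) and KO was lower at day 2 (difference -0.77 ± 0.12, adjusted p = 0.00525). The difference of changes was -0.86 ± 0.19 (adjusted p = 0.0367, 0.0714 after quantile normalization), lost without WT day 0 replicates 1 or 2, WT day 2 replicates 1, 2 or 3 or KO day 2 replicates 1, 2 or 3.

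Eif3d, whose protein can itself bind caps on some messages, read 2622 and 2644 at day 0, 4104 in the day 1 pool and 4007, 4089 and 4129 at day 2 in WT. For Eif3d in KO, the values were 3601 and 2463 at day 0, 3404 in the day 1 pool and 2332, 2891 and 2215 at day 2. The genotypes did not overlap at day 2, while KO at day 2 overlapped KO at day 0. Eif3d rose in WT (difference 0.63 ± 0.17, adjusted p = 0.029, lost without WT day 0 replicates 1 or 2 or WT day 2 replicates 1, 2 or 3 and, at 0.50 with adjusted p = 0.0531, after quantile normalization) and was lower in KO at day 2 (difference -0.72 ± 0.15, adjusted p = 0.0143, lost without KO day 2 replicates 1 or 3). Eif3f, a gene of the core octamer of eIF3, read 2139 and 1945 at day 0, 3554 in the day 1 pool and 3361, 3142 and 3623 at day 2 in WT. For Eif3f in KO, the values were 2513 and 2224 at day 0, 3693 in the day 1 pool and 2348, 2359 and 2714 at day 2. Its WT day 2 arrays were above both WT day 0 arrays, and in KO the day 2 and day 0 ranges overlapped. Eif3f rose in WT by 0.72 ± 0.13 (adjusted p = 0.00325), and its day 2 genotype difference of -0.45 ± 0.11 (adjusted p = 0.0333) was -0.29 after quantile normalization (adjusted p = 0.118) and was lost without WT day 2 replicates 1 or 3 or KO day 2 replicates 1, 2 or 3. Eif3l, another gene of the octamer, read 2316 and 2019 at day 0, 3128 in the day 1 pool and 3769, 3658 and 3230.2 at day 2 in WT. For Eif3l in KO, the values were 2356 and 2464 at day 0, 3128 in the day 1 pool and 2591, 2437 and 2344 at day 2. Day 2 was above day 0 in WT and overlapped it in KO. Eif3l rose in WT by 0.71 ± 0.12 (adjusted p = 0.00302), and its day 2 genotype difference was -0.53 ± 0.11 (adjusted p = 0.016, 0.0658 after quantile normalization), lost without WT day 2 replicate 1 or KO day 2 replicates 2 or 3. A dimmer Eif3l set, 1437948_x_at, gave 0.66 in WT and 0.017 for KO against WT at day 2, neither called.

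Eif3e and Eif3h, which also code for octamer subunits, were lower in KO at day 2 without a called rise in WT. Eif3e read 3687 and 3496 at day 0, 3811 in the day 1 pool and 4558, 3601 and 4321 at day 2 in WT. For Eif3e in KO, the values were 4491 and 3232 at day 0, 3736 in the day 1 pool and 2942, 2802 and 2807 at day 2. KO at day 2 was below every other array of the gene, and the day 2 difference was -0.54 ± 0.14 (adjusted p = 0.0335, lost without WT day 2 replicates 1 or 3 or KO day 2 replicates 1, 2 or 3). Its 2 other sets above the filter, 1434523_x_at and 1439268_x_at, gave -0.55 and -0.85, both called. Eif3h read 3374 and 3392 at day 0, 3376 in the day 1 pool and 4074, 4243 and 4305 at day 2 in WT. For Eif3h in KO, the values were 3954 and 2841 at day 0, 3333 in the day 1 pool and 2985, 2852 and 3079.8 at day 2. KO at day 2 lay below WT at day 2 and within the range of KO at day 0, with a day 2 genotype difference of -0.50 ± 0.13 (adjusted p = 0.0306, lost without WT day 2 replicates 1, 2 or 3 or KO day 2 replicates 1, 2 or 3). Neither of these 2 calls held after quantile normalization (adjusted p = 0.07 for Eif3e and 0.0851 for Eif3h). With the sets used, Eif3a, the largest subunit, and Eif3i, Eif3k and Eif3m were called in no comparison. A second Eif3i set, 1448264_a_at, was called higher over time in WT (0.62, adjusted p = 0.00946). The Eif3a set 1416660_at was called higher there too (0.89, adjusted p = 0.0334), while 1416659_at gave 0.091 and was not called. Eif3a read 1722 and 1589.6 at day 0, 2215 in the day 1 pool and 2279.7, 2155 and 1993 at day 2 in WT. For Eif3a in KO, the values were 1766 and 1966 at day 0, 2427 in the day 1 pool and 2093, 2063 and 2056 at day 2, with day 2 genotype difference -0.047 ± 0.11.

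**Figure D4:**
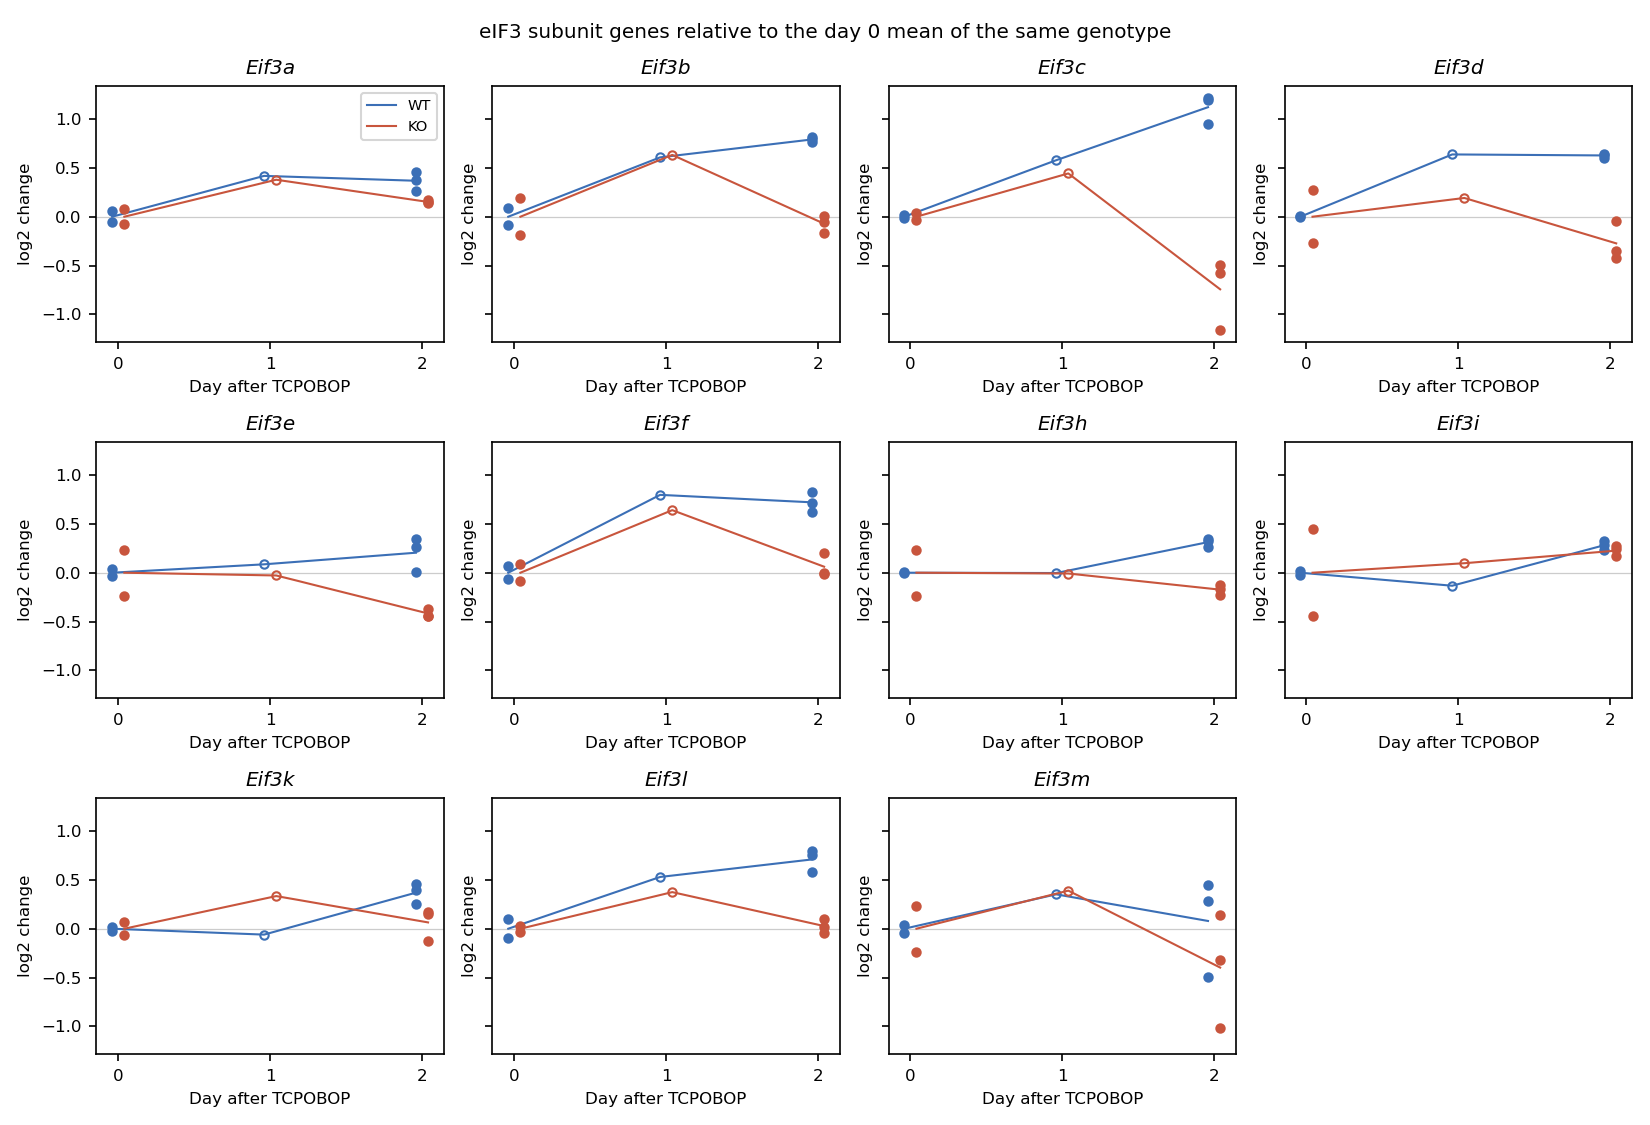
Log2 change of the 11 eIF3 subunit genes (1 panel each) against the day 0 mean of the same genotype, by day; points are arrays, open points the day 1 pools and lines join the means. In Eif3b and Eif3c the WT and KO pools lie close at day 1, at 0.61 and 0.63 and at 0.58 and 0.44, and the genotypes part at day 2.

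Of 4 tested genes of eIF2 and tRNA delivery, Eif2a rose in WT and none was called in KO over time. Eif2a codes for a factor that can bring initiator tRNA to some messages without eIF2 and is not the eIF2 alpha subunit. It read 166 and 226 at day 0, 622 in the day 1 pool and 514, 589.8 and 876 at day 2 in WT. For Eif2a in KO, the values were 269 and 222 at day 0, 469 in the day 1 pool and 510.4, 438 and 497 at day 2. Every later array was above both day 0 arrays in each genotype. The WT rise was 1.65 ± 0.27 (3.14-fold, adjusted p = 0.00191), the KO difference was 0.93 ± 0.27 (adjusted p = 0.0555), and over both genotypes the rise was 1.29 ± 0.19 (adjusted p = 0.000691). A second set of the gene, 1434452_x_at, gave -0.18 ± 0.36 in WT and did not pass. Eif2s2, the beta subunit gene of eIF2, rose when both genotypes were averaged (difference 0.34 ± 0.10, adjusted p = 0.0486, lost without WT day 0 replicates 1 or 2, WT day 2 replicates 1, 2 or 3, KO day 0 replicate 2 or KO day 2 replicates 1, 2 or 3). In the fit of all probe sets this Eif2s2 difference had an adjusted p of 0.05335. Eif2s3x, the X-linked gamma subunit gene, read 4086 and 3814 at day 0, 5134 in the day 1 pool and 4617, 3714 and 4237 at day 2 in WT. For Eif2s3x in KO, the values were 4628 and 3916 at day 0, 4860.1 in the day 1 pool and 4271, 4142 and 4181 at day 2, and the groups at day 2 overlapped. Eif2d, a factor of reinitiation and recycling, was not called. It differed by -0.49 ± 0.19 in WT and by 0.51 ± 0.19 in KO over time, and the difference of changes of 1.00 ± 0.27 had an adjusted p of 0.065. Its other sets above the filter did not share these signs. For the difference of changes, 1451211_a_at gave -0.58, 1436724_a_at gave -0.38 and 1455797_x_at gave 1.15, none of them called. The last of these was called higher over time in KO (1.51, adjusted p = 0.00126), while 1451211_a_at gave 0.52 in WT and -0.068 in KO.

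Of the 5 eIF2B genes, Eif2b1 stood apart from the other 4. Eif2b1, the alpha subunit gene, read 1139 and 800.3 at day 0, 880.2 in the day 1 pool and 1166, 970.3 and 918 at day 2 in WT. In KO, Eif2b1 read 899 and 878 at day 0, 1279.6 in the day 1 pool and 321, 112 and 142 at day 2. The KO pool at day 1 was the highest of the 12 arrays and the 3 KO day 2 arrays were the lowest. Eif2b1 fell in KO (difference -2.25 ± 0.34, 4.77-fold, adjusted p = 0.00158) and was lower in KO than in WT at day 2 (difference -2.44 ± 0.30, adjusted p = 0.00187), while the WT difference was 0.083 ± 0.34. The difference of changes was -2.34 ± 0.48 (adjusted p = 0.0286, lost without WT day 0 replicates 1 or 2, WT day 2 replicates 1, 2 or 3 or KO day 2 replicates 2 or 3). This gene has 1 probe set, so no second set could be compared.

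The other eIF2B genes had negative values in KO at day 2 that did not pass. All 5 genes had positive differences in WT (median 0.18) and negative ones in KO (median -0.38), and at day 2 all 5 were below WT in value (median -0.46). At day 2 KO differed from WT by -0.60 ± 0.17 for Eif2b2 (adjusted p = 0.0531), by -0.46 ± 0.15 for Eif2b4 (adjusted p = 0.0832), by -0.39 ± 0.15 for the catalytic subunit gene Eif2b5 (adjusted p = 0.125) and by -0.048 ± 0.13 for Eif2b3 (adjusted p = 0.833). The same signs held for all 5 after quantile normalization, but they depend on the probe set used. The second Eif2b5 set above the filter, 1445908_at, had the opposite sign in each comparison, with -0.20 in WT, 0.61 in KO and 0.57 for KO against WT at day 2 (adjusted p = 0.0526). For Eif2b2, the set 1451136_a_at gave 0.67 in WT (adjusted p = 0.0265), 0.47 in KO and -0.22 at day 2.

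None of the 4 eIF2 alpha kinase genes was called in any of the 6 comparisons. In KO against WT at day 2, Eif2ak2 had an unadjusted p under 0.05 in limma's fit, and in the other 5 comparisons 0 of the 4 did. Eif2ak1 is activated by lack of haem, Eif2ak2 by double-stranded RNA, Eif2ak3 by stress of the endoplasmic reticulum and Eif2ak4 by lack of amino acids. Eif2ak4 read 214 and 174 at day 0, 132 in the day 1 pool and 176, 136 and 51.6 at day 2 in WT. For Eif2ak4 in KO, the values were 95.9 and 192 at day 0, 112 in the day 1 pool and 196, 286 and 329 at day 2. Eif2ak4 was above the array median on 2 of the 12 arrays, KO day 2 replicates 2 and 3, so it passed the filter through that group alone and its values are given without a comparison. Eif2ak2 read 343, 302 and 340.1 in WT and 450.0, 443 and 452 in KO at day 2, a difference of 0.43 ± 0.19 (adjusted p = 0.159). Eif2ak1 and Eif2ak3 differed by 0.23 ± 0.14 and 0.15 ± 0.23.

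Among the genes of start codon selection, the pair that code for eIF1A behaved differently. Eif1ax, the X-linked gene, read 1082 and 1151 at day 0, 2839 in the day 1 pool and 2182, 2254 and 2416 at day 2 in WT. For Eif1ax in KO, the values were 1362 and 1385 at day 0, 2910.0 in the day 1 pool and 2206, 2125 and 1677 at day 2. Every array after TCPOBOP was above both day 0 arrays in each genotype. It rose by 1.02 ± 0.14 in WT (2.03-fold, adjusted p = 0.000543) and by 0.53 ± 0.14 in KO (adjusted p = 0.0361, lost without WT day 0 replicates 1 or 2, WT day 2 replicates 1 or 2, KO day 0 replicates 1 or 2 or KO day 2 replicates 1 or 2). The change in KO minus that in WT was -0.49 ± 0.20 and did not pass (adjusted p = 0.187).

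Eif1a, the other eIF1A gene, read 907 and 729.9 at day 0, 1318 in the day 1 pool and 963, 702 and 801 at day 2 in WT. The KO arrays of Eif1a read 1199.6 and 1169 at day 0, 1304 in the day 1 pool and 549, 536 and 402 at day 2. WT at day 2 overlapped WT at day 0, and KO at day 2 was below all the other arrays. Eif1a differed by 0.0025 ± 0.19 in WT and fell in KO (difference -1.24 ± 0.19, 2.37-fold, adjusted p = 0.00196). KO was lower than WT at day 2 (difference -0.71 ± 0.17, adjusted p = 0.0273, lost without WT day 2 replicates 1 or 3 or KO day 2 replicates 2 or 3), and the difference of changes was -1.25 ± 0.27 (adjusted p = 0.0346, lost without WT day 0 replicates 1 or 2, WT day 2 replicates 1 or 3, KO day 0 replicates 1 or 2 or KO day 2 replicates 1, 2 or 3). The second set of Eif1a above the filter, 1424344_s_at, gave -0.72 in KO over time, -0.16 at day 2 (adjusted p = 0.638) and -0.59 for the difference of changes, none of them called. The 2 genes code for nearly the same protein, so a share of signal from one on the probes of the other was not tested.

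Eif5, which makes eIF2 hydrolyse its GTP at the start codon, read 3850.2 and 4711 at day 0, 5315 in the day 1 pool and 4511, 3929.5 and 4184 at day 2 in WT. For Eif5 in KO, the values were 5295 and 5896 at day 0, 5520.0 in the day 1 pool and 4766, 5520.4 and 5534 at day 2. KO at day 2 was above WT at day 2 without overlap. The Eif5 difference at day 2 was 0.32 ± 0.12 as deposited (adjusted p = 0.108) and 0.54 after quantile normalization (adjusted p = 0.0301), and it was positive both ways. The other 4 sets above the filter were of mixed sign at day 2, with 0.27, -0.38, -0.02 and 0.51, none of them called. One of these, 1456256_at, was called lower over time in WT (-1.15, adjusted p = 0.00541), where the set used gave -0.02. Eif5b, whose protein joins the ribosomal subunits, differed by -0.68 ± 0.23 at day 2 (adjusted p = 0.0815), and Eif1ad and Eif1b were called in no comparison.

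Eif5a and Eif6 followed the eIF3 genes in direction. Eif5a read 11709 and 12508 at day 0, 19122 in the day 1 pool and 20845, 22897 and 22118 at day 2 in WT. For Eif5a in KO, the values were 13896 and 14382 at day 0, 21581 in the day 1 pool and 14422, 14286 and 16561 at day 2. WT at day 2 was above all the KO day 2 arrays, and KO at day 2 overlapped KO at day 0. Eif5a rose in WT by 0.86 ± 0.11 (adjusted p = 0.000444) and was lower in KO at day 2 (difference -0.54 ± 0.10, adjusted p = 0.00983, lost without KO day 2 replicate 2). After quantile normalization the day 2 difference was -0.21 (adjusted p = 0.187). The difference of changes was -0.77 ± 0.16 (adjusted p = 0.0304, 0.273 after quantile normalization), lost without WT day 0 replicates 1 or 2, WT day 2 replicates 1, 2 or 3 or KO day 2 replicates 1 or 2. A second set, 1437859_x_at, gave 0.63 in WT and -0.52 for KO against WT at day 2, both called.

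Eif6 read 1657 and 1648 at day 0, 2011 in the day 1 pool and 2717, 2884 and 2754 at day 2 in WT. The KO arrays of Eif6 read 1680.0 and 1679 at day 0, 2744 in the day 1 pool and 1772, 1757 and 1836 at day 2. The day 2 groups did not overlap, and the KO pool at day 1 lay within the range of the WT day 2 arrays. Eif6 rose in WT by 0.75 ± 0.11 (adjusted p = 0.000948), and KO was lower at day 2 (difference -0.63 ± 0.099, adjusted p = 0.00502, and 0.0141 after quantile normalization). The difference of changes was -0.66 ± 0.16 (adjusted p = 0.046, 0.0925 after quantile normalization), lost without WT day 0 replicates 1 or 2, WT day 2 replicates 1, 2 or 3 or KO day 2 replicates 1, 2 or 3. A dimmer second set, 1431582_at, gave -0.27 in WT, 0.46 ± 0.20 at day 2 and 0.63 for the difference of changes. These signs were opposite to those of the set used, and none was called. Eif5a2, a relative of Eif5a, read 554 and 661 at day 0, 589 in the day 1 pool and 336, 621 and 499.5 at day 2 in WT. For Eif5a2 in KO, the values were 585 and 636 at day 0, 629 in the day 1 pool and 645, 620.4 and 739.7 at day 2. It was called in no comparison.

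Over all called genes, a second probe set above the filter existed for 10 of the 13 that rose in WT, and in 5 of these another set was called in the same direction and in none in the opposite one, while in 4 of the 10 every other set had the same sign. For the 13 that were lower in KO at day 2, 8 had a second set and 3 had another set called the same way, again with none opposite, and in 4 of the 8 every other set had the same sign. For the 7 called in KO over time, 5 had a second set, with 1 gene called the same way and 1 gene, Eif4h, called the opposite way by another set, and in 3 of the 5 every other set had the same sign. For the 8 called in the difference of changes, 6 had a second set, with 1 called the same way, none called the opposite way, and every other set of the same sign in 4.

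**Figure D5:**
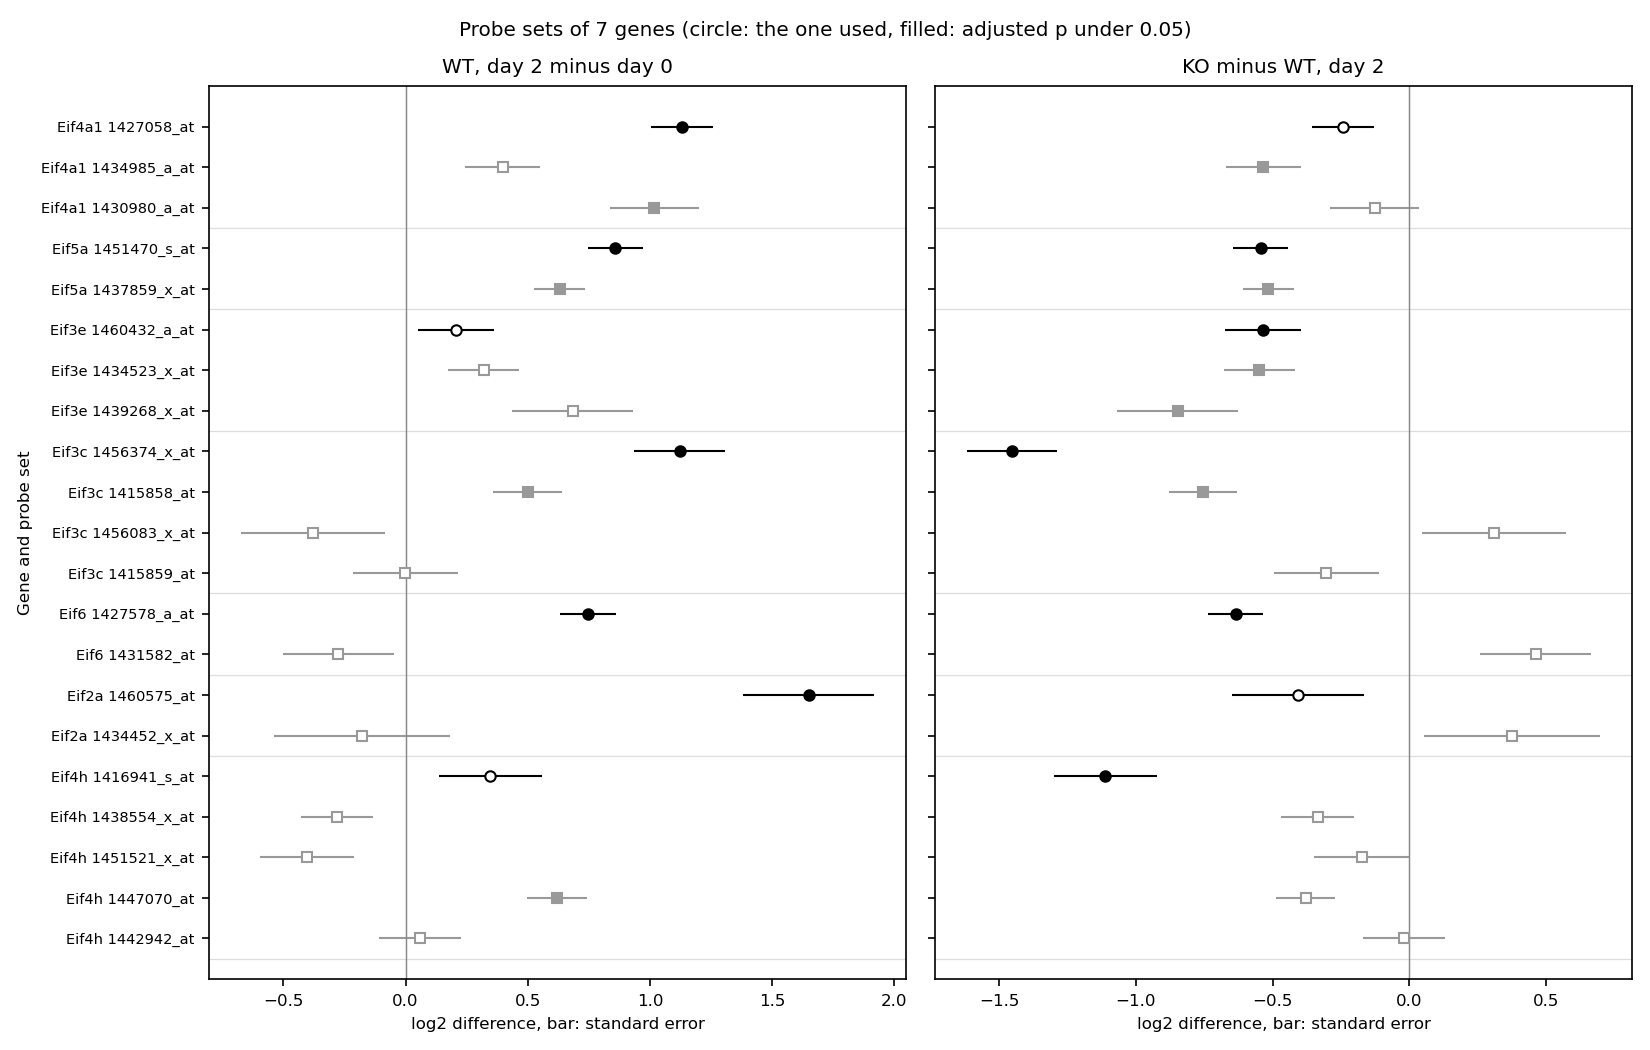
Log2 difference with its standard error for each probe set above the filter of 7 initiation factor genes, in WT over time and in KO against WT at day 2. In the second panel the sets of Eif3e run from -0.85 to -0.54 and those of Eif4h from -1.11 to -0.019. In the first panel the sets of Eif3e run from 0.20 to 0.68.

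The day 1 pools had 1 array for each genotype, so the values describe these 2 arrays and no test was made. In the WT pool, 10 of the 45 genes were at least 1.5-fold above the day 0 mean (background 14.3%) and 2 as far below (background 17.3%). In the KO pool 8 were above (background 14.1%) and 1 below (background 16.4%). In both pools 6 were above, namely Eif1ax, Eif2a, Eif3b, Eif3f, Eif4e and Eif5a (background 6.86%), and 1 was below, Eif4b (background 6.50%). The log2 difference of Eif4b from day 0 was -0.86 in the WT pool and -0.99 in the KO pool. These shares stand near or above the background for the rises and under it for the falls.

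Set against each other at day 1, the KO pool was 1.5-fold above the WT pool in 0 of the 45 genes (background 9.79%) and below it in 1, Eif4e3 (background 11.5%). The median difference between the pools was 0.0012 on the log2 scale. From the pool to day 2 the median of the 45 genes moved by -0.028 in WT and by -0.23 in KO, where that of all genes moved by -0.019 and 0.075. Eif2b1 went from 1279.6 in the KO pool to 321, 112 and 142 at day 2, a log2 difference of -2.77, and Eif3c moved by -1.19 in KO and by 0.54 in WT.

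Genes that work beside initiation were counted in 6 lists. Of 19 tested elongation and release factor genes, 8 rose in WT (background 7.26%) and none fell (background 5.37%, 0 negative at an unadjusted p under 0.05), while 1 rose (background 4.20%) and 3 fell (background 4.49%) in KO. At day 2, 5 of the 19 were lower in KO (background 5.23%) and none was higher (background 3.99%, 0 positive at an unadjusted p under 0.05). These backgrounds hold for the lists below as well. The single rise in KO is near its background, and after quantile normalization 7 rose in WT, 1 fell in KO and 4 were lower at day 2. Eef1b2, a subunit of the factor that recharges eEF1A, rose by 1.09 ± 0.14 in WT (adjusted p = 0.000365). Eef1a1, which brings aminoacyl-tRNA to the ribosome, rose by 0.54 ± 0.13 in WT (adjusted p = 0.0161) and fell in KO (difference -0.53 ± 0.13, adjusted p = 0.0216). After quantile normalization its differences were 0.014 (adjusted p = 0.925) and 0.05 (adjusted p = 0.702), so neither call held. Eef1d, another exchange subunit, was lower in KO at day 2 (difference -0.95 ± 0.13, adjusted p = 0.00285, -0.86 after quantile normalization). Eef2, the translocase gene, differed by -0.41 ± 0.096 (adjusted p = 0.0232), a call lost after quantile normalization (-0.056, adjusted p = 0.694) and without WT day 2 replicates 1 or 3 or KO day 2 replicates 1, 2 or 3.

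Of 24 tested partners and scanning helpers, 1 rose and 1 fell in WT, 4 fell in KO, and 6 were lower in KO at day 2. The 1 rise and 1 fall in WT are not above the background. Pabpc1, the poly(A)-binding protein that meets eIF4G, rose by 1.13 ± 0.20 in WT (adjusted p = 0.00303) and was lower in KO at day 2 (difference -0.93 ± 0.18, adjusted p = 0.0106). Pdcd4, an inhibitor of the eIF4A helicase, fell in both genotypes (differences -0.65 ± 0.14 in WT, adjusted p = 0.00998, lost without WT day 0 replicate 2, and -0.80 ± 0.14 in KO, adjusted p = 0.00391). Of 24 tested genes of mTORC1 and the MNK kinases, 1 was called, a share near or under the background. This was Mknk1, which codes for a kinase of eIF4E. It fell in WT (difference -1.11 ± 0.21, adjusted p = 0.00538, lost without WT day 0 replicate 2) and was higher in KO at day 2 (difference 0.78 ± 0.19, adjusted p = 0.0283). The day 2 call was lost after quantile normalization (adjusted p = 0.0521) and without WT day 2 replicates 1 or 3 or KO day 2 replicates 1, 2 or 3. Of 12 tested genes of eIF2 alpha phosphorylation, its phosphatases and its targets, 1 fell in WT, 1 rose in KO and 1 was higher in KO at day 2, each near the background. Chac1, a target of the factor ATF4, fell in WT (difference -1.31 ± 0.18, adjusted p = 0.000532) and was higher in KO at day 2 (difference 1.29 ± 0.16, adjusted p = 0.00187). Trib3, another such target, rose in KO by 1.07 ± 0.18 (adjusted p = 0.00298). Of 3 mitochondrial initiation factor genes, Mtif2 fell in WT (difference -0.54 ± 0.15, adjusted p = 0.038). That call was lost after quantile normalization (adjusted p = 0.0577), after cyclic loess (adjusted p = 0.0653) and without WT day 0 replicates 1 or 2, WT day 2 replicates 1 or 3 or KO day 2 replicates 1, 2 or 3. Of 18 tested cytosolic aminoacyl-tRNA synthetase genes, Kars and Vars rose in WT, Tars fell in KO and Vars was lower in KO at day 2 (difference -0.91 ± 0.15, adjusted p = 0.00662), counts near the background in each comparison. The Kars call was lost without WT day 0 replicates 1 or 2 or WT day 2 replicate 2.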

How the data were processed

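Liver RNA was labelled as biotinylated cRNA and hybridised to Affymetrix Mouse430 2.0 arrays, per the labels' protocols. The deposited values are MAS5 signal intensities on a linear scale, per the submitters' processing notes; the software version and scaling target were not found in those notes, and the trimmed mean close to 500 was computed from the values. Probe sets were named from the platform's annotation: 34945 of 45037 named 1 gene, 932 named several and 9160 none, and 64 control sets were left out. For each gene the set with the highest mean was used.

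Values were tested as log2(signal + 16) with limma 3.58.1 in R 4.3.3 (lmFit of 6 group means to the 12 arrays, which leaves 6 residual degrees of freedom, then robust eBayes with a mean-variance trend, two-sided, Benjamini-Hochberg over 14103 genes), which was tested on simulated data. The number of arrays limits the precision. Replicate numbers did not pair the arrays (correlations of same-numbered deviations from -0.024 to 0.034). Named genes are a fixed panel of the family and its regulators and every initiation factor gene called in any of the 6 comparisons. Of the pathway lists, some of the called genes are named, not always those with the largest differences. The members and lists were chosen with earlier results of these data known. Alternatives were quantile, cyclic loess and median centring, pseudocounts 1 and 64, other filters, the mean of probe sets, eBayes without trend, only the arrays compared, a replicate block, each array left out, and, added after the values were seen, leaving out the day 1 pools or the sets ending in _s_at and _x_at.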

Additional observations from a re-analysis of the deposited data

Results flagged for a closer look

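For 8 genes the change from day 0 to day 2 differed between KO and WT in limma's test of the difference itself (adjusted p under 0.05). The log2 change in KO minus that in WT was -1.25 for Eif1a, -2.34 for Eif2b1, -0.86 for Eif3b, -1.86 for Eif3c, -0.74 for Eif4a1, -1.23 for Eif4h, -0.77 for Eif5a and -0.66 for Eif6. Eif3b, Eif3c, Eif4a1, Eif5a and Eif6 rose in WT, and Eif1a, Eif2b1, Eif3c and Eif4h fell in KO. Eif1a, Eif2b1 and Eif3c passed after quantile normalization too, and Eif3c passed with each of the 10 arrays left out in turn. Why the changes differed was not tested.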

How the results depend on the processing

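With the mean of a gene's probe sets, the calls were 8 in WT over time, 4 in KO, 8 for KO against WT at day 2 and 4 for the difference of changes, with medians of -0.14 and -0.15 for the last pair. With eBayes without trend and robust, they were 3 in KO, 7 at day 2 and 1 for the difference of changes, and with only the arrays compared 3 in KO. Quantile normalization gave 8 calls at day 2 (7 lower, 1 higher) and 3 for the difference of changes, with medians of -0.11 and -0.22. Cyclic loess gave medians of -0.12 and -0.22 and 3 calls for the difference of changes, as did using no filter. Centring arrays on their median gave a WT median of 0.33, 21 calls at day 2 with a median of -0.47, and -0.55 for the difference of changes. The replicate block gave 5 calls for the difference of changes and 11, 5, 13, 0 and 12 in WT, in KO, at day 2, at day 0 and over both genotypes. Without the sets ending in _s_at and _x_at the median of the difference of changes was -0.23, and Eif4h in KO over time turned to 0.52 (adjusted p = 0.0182), read by another set. The cause of the other shifts was not tested. Apart from quantile normalization, the counts under these alternatives have no share of all genes beside them. With each of 10 arrays left out, calls ranged from 9 to 17 in WT, 3 to 8 in KO, 6 to 16 at day 2, 0 to 2 at day 0, 1 to 9 for the difference of changes and 10 to 16 over both genotypes. In the same order the medians ranged from 0.15 to 0.33, -0.062 to 0.012, -0.32 to -0.26, 0.019 to 0.18, -0.48 to -0.29 and -0.014 to 0.062. Of 55 called gene results, 30 kept direction and call with the mean of probe sets, 33 with eBayes without trend and robust, 41 under quantile normalization and 45 under cyclic loess. With 2 arrays a group at day 0, small differences could not be told from the spread between arrays.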
